A study of Mus musculus with 3 samples.

Results

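The nuclear genes of oxidative phosphorylation were followed in mouse embryonic stem cells whose translation had been blocked with cycloheximide. Members were every gene of the files whose symbol begins with Nduf, Uqcr, Cox4 to Cox8 or Atp5, or is Sdha, Sdhb, Sdhc or Sdhd, which gave 94 of 32285 genes. They comprise 37 genes of complex I, 4 of complex II, 8 of complex III, 18 of complex IV (with Ndufa4, now placed there despite its name) and 17 of complex V. The remaining 10 are the complex I assembly factors Ndufaf1 to Ndufaf8, the complex III and IV joining factor Cox7a2l, and Ndufa4l2, a hypoxia-induced relative of Ndufa4.

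The cells were E14, an embryonic stem cell line from 129/Ola mice, kept in serum with leukemia inhibitory factor. At 24 h after seeding they received 250 µg/mL cycloheximide, an inhibitor of translation elongation, in 0.007% ethanol for 3 h or for 6 h, or ethanol at 0.007% alone for 6 h as the control. All cells were frozen, shipped and thawed before droplet capture with a 3′ chemistry that tags each captured molecule with a unique molecular identifier (UMI). Each group was 1 library of 1 line, so no test between conditions was possible and no difference below has a replicate check. The ethanol control matched the longer exposure and not the 3 h one. Where 3 values are given in a row below, they stand for control, 3 h and 6 h, and a pair of log2 ratios stands for 3 h and 6 h against control.

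Oxidative phosphorylation couples electron transfer through complexes I to IV of the inner mitochondrial membrane to ATP synthesis by complex V. Complexes I, III, IV and V are assembled from nuclear subunits, made in the cytosol and imported, and from subunits encoded in mitochondrial DNA and made on mitochondrial ribosomes, while complex II is nuclear throughout. Cycloheximide stops cytosolic ribosomes and leaves mitochondrial ribosomes working. Embryonic stem cells are known to use both glycolysis and respiration.

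Counts were summed over barcodes with at least 15000 UMIs of which 1 to 20% came from mitochondrially encoded genes. This kept 2187 control barcodes, 1739 of the 3 h library and 2554 of the 6 h library, holding 111447486, 106842407 and 140321458 UMIs. Any pair of libraries shared at most 3 barcode sequences. All 7 embryonic stem cell markers were present (summed level 6522, 7478 and 6841 CPM, counts scaled to 1000000 UMIs per library), and they differed between libraries. Dppa5a held most of the sum, at 4771, 5327 and 5475 CPM. By CPM all 7 were above the control at 3 h (with TMM 2 of 7 were below) and 5 of 7 were below it at 6 h (7 of 7 with TMM), among them Zfp42 at 455, 592 and 240 CPM and Sox2 at 213, 285 and 146 CPM. The part of this in the members' values was not tested. The 7 fibroblast or feeder markers summed to 2.48, 1.62 and 1.29 CPM, with Col3a1, Postn and Lum at 0 in all libraries, the endoderm list to 5.29, 7.36 and 7.42 CPM, the mesoderm list to 3.71, 3.34 and 5.10 CPM, and the neural list, mostly Tubb3, to 84.0, 56.5 and 34.5 CPM. The lower mitochondrial limit left out 62 control barcodes, 1 of the 3 h library and 8 of the 6 h library. In those 62 barcodes, which held 5.40% of the control UMIs above the depth limit, members stood at 49652 CPM against 33610 CPM in the barcodes kept.

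The promoters shown here belong to the 2 members with the highest and the 3 with the lowest ratios at 6 h described below, and to Cox6a1, whose stretch holds a pair of matches. The Cox6b2 stretch holds none. Each sequence is a single stretch before the RefSeq start of the gene that lies outside annotated exons. It comes from RefSeq on GRCm38.p6 and is written 5′ to 3′ on the strand of the gene. Where exons split the region, the longest part with a match was taken, or the longest part if none had a match. Capitals mark matches to GCGCA and GCGC with any base between them, the core of the site of NRF1, or to CCGGAAG, the core of the site of ETS factors, on either strand. The Sdhd stretch is chr9:50603850-50603909 on the minus strand, the Ndufaf4 stretch chr4:24897833-24898082 on the plus strand, the Ndufaf1 stretch chr2:119662835-119663084 on the minus strand, the Cox6b2 stretch chr7:4753095-4753225 on the minus strand, the Ndufa11 stretch chr17:56717686-56717761 on the plus strand and the Cox6a1 stretch chr5:115348982-115349129 on the minus strand.
Sdhd: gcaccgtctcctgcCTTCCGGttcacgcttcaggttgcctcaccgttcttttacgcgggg
Ndufaf4: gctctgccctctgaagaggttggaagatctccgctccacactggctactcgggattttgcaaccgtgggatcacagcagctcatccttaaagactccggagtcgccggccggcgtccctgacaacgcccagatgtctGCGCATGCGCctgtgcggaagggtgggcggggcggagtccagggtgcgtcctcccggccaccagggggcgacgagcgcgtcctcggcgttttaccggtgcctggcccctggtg
Ndufaf1: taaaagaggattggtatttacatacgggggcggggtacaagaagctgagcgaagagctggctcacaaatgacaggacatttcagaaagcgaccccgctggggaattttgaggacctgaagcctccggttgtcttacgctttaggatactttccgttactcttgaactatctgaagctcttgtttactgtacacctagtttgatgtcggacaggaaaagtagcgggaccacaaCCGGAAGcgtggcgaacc
Cox6b2: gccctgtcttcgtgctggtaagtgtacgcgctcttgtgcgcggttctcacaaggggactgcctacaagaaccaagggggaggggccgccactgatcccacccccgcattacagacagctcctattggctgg
Ndufa11: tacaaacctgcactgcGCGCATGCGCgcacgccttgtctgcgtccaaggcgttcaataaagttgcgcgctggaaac
Cox6a1: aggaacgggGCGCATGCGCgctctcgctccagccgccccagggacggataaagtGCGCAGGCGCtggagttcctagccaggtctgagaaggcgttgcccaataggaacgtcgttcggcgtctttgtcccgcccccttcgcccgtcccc

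NRF1 is a transcription factor known for driving nuclear respiratory genes. Promoter windows of 300 bases, from 250 before to 50 after the start, were found for 75 of the 94 members (80 windows). The NRF1 letters were present in 20 of these windows (25%), against 4.60% of all 32851 windows and 12.4% of the 7705 windows of genes above the expression floor. The ETS letters were in 23.8% of member windows, against 8.86% of all windows and 21.9% of the windows of genes above the floor. AAGATGGCG, the core of the YY1 site, was in 10.0%, 1.40% and 4.06%, and TATAAA in 11.3%, 13.6% and 6.58%, in the same order. A match is a description of letters and not a site.

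Members together held close to the same share of RNA in all libraries. Their summed level was 33610, 32946 and 34689 CPM in control, 3 h and 6 h, that is 3.36%, 3.29% and 3.47% of UMIs. On the log2 scale the sum at 3 h differed from the control by -0.029 (95% counting interval -0.031 to -0.027) and the sum at 6 h by 0.046 (0.044 to 0.048). The 6 h sum was 0.074 above that of 3 h. These directions depended on the scaling. The sums gave -0.20 at 3 h and -0.24 at 6 h with TMM factors, and 0.24 and 0.15 as UMIs per barcode. TMM (trimmed mean of M-values) scales each library by a mean of gene ratios with the extremes trimmed off. TMM shifted every log2 ratio by -0.17 at 3 h and -0.29 at 6 h, and counting per barcode by 0.27 and 0.11. With CPM the median of all genes itself was 0.11 at 3 h and 0.17 at 6 h. With TMM it was -0.063 and -0.12, and per barcode 0.38 and 0.27. Members are therefore also described relative to the median of all genes, a difference that TMM and per-barcode scaling do not change.

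Of the 94 members, 88 reached the expression floor, a mean level of 10 CPM or more across the libraries, as did 7608 genes in all. The members' median log2 ratio lay 0.12 below the median of all genes at 3 h and 0.097 below it at 6 h (median -0.0042 and 0.069), and 73 and 58 of the 88 lay under it. These distances moved with the floor, to -0.068 at 3 h and -0.033 at 6 h with a floor of 50 CPM. Between 3 h and 6 h the members' median lay 0.043 above that of all genes, and 0.020 above with a floor of 1 CPM. With a log2 difference of 0.32 as the limit, 1 member was lower (Cox6b2) and 2 were higher (Sdhd and Ndufaf4) at 3 h, where 8.33% of all genes were lower and 29.5% higher. At 6 h, 3 were lower (Ndufaf1, Cox6b2 and Ndufa11) and 12 higher, against 15.9% and 37.9% of all genes. From 3 h to 6 h, 1 was lower (Ndufaf1) and 2 were higher (Sdhd and Ndufaf5), against 8.64% and 11.9%.

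The split between higher and lower moved with the scaling as well. With TMM factors 16 members were lower and 0 higher at 3 h (19.4% and 18% of all genes), and 29 were lower and 3 higher (Sdhd, Ndufaf4 and Ndufaf5) at 6 h (33.6% and 21.1%). As UMIs per barcode, 1 was lower and 28 higher at 3 h (2.1% and 57.7%), and 2 were lower and 20 higher at 6 h (12% and 46.1%). Under all 3 scalings together, 9 members were above 0 and 2 below (Cox6b2 and Cox7a1) at 3 h (42.6% and 10.9% of all genes), and 14 were above and 15 below at 6 h (40.5% and 28.4%).

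The members' ratios were also narrowly spread. The 5th to 95th percentiles of the log2 ratio spanned 0.47 at 3 h and 0.65 at 6 h, against 1.36 and 1.99 for all genes. Less than 0.32 from the control lay 96.6% of members at 3 h and 83.0% at 6 h, against 62.2% and 46.2% of all genes. Spans narrower than those of all genes were not particular to members. Cytosolic ribosomal protein genes spanned 0.58 and 0.82, with 83.9% and 77.0% less than 0.32 from the control. Mitochondrial ribosomal protein genes spanned 0.78 and 1.19, with 76.9% and 59.0%. The spans were not matched on expression level, and its part in the difference was not tested.

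**Figure D1:**
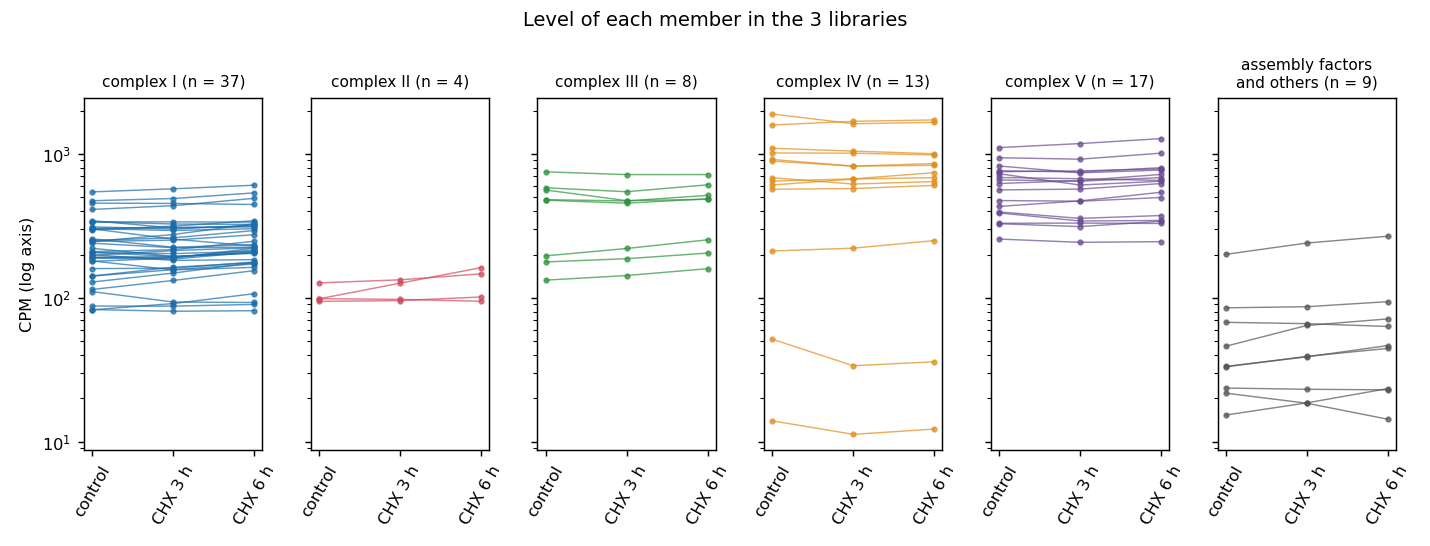
CPM (log axis) of each of the 88 members above the expression floor in the control, 3 h and 6 h libraries, 1 line per gene and 1 panel per complex. Most lines are close to level, and among the exceptions are an upward line in complex II (Sdhd, 98.4 to 162 CPM) and a downward one in complex IV (Cox6b2, 51.6 to 36.0 CPM).

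Complex I, the NADH dehydrogenase, summed to 8878, 8860 and 9428 CPM in control, 3 h and 6 h. The sum had log2 ratios of -0.0030 and 0.087 by CPM, and -0.18 and -0.20 with TMM. All 37 members passed the floor. At 6 h, 4 were higher (Ndufv1, Ndufs3, Ndufb11 and Ndufa9) and 1 lower (Ndufa11) past the limit of 0.32 by CPM, against 37.9% and 15.9% of all genes.

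The flavoprotein Ndufv1, which takes electrons from NADH, was at 129, 149 and 176 CPM in control, 3 h and 6 h. The 6 h library was the highest and the control the lowest, with log2 ratios of 0.21 and 0.45 (0.42 to 0.48 at 6 h). Ndufs3, a core subunit of the peripheral arm, was at 114, 132 and 155 CPM, with 0.21 and 0.43. For both of these core genes the direction was upward at 6 h under all 3 scalings.

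Further core genes lay nearer to equality. Ndufs1, an iron-sulfur subunit of the electron input module, was at 87.8, 87.6 and 90.0 CPM, and its interval at 6 h included equality (0.037, -0.0013 to 0.075). Ndufv2 had a log2 ratio of 0.0015 at 6 h, Ndufs7 of 0.029 and Ndufs8 of -0.026. The sum of the 7 core genes was 0.18 higher at 6 h on the log2 scale (-0.11 with TMM), and that of the 30 accessory genes 0.074 higher (-0.21 with TMM).

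Among accessory subunits Ndufb11, of the membrane arm, was at 246, 275 and 328 CPM (0.41 at 6 h). Ndufa9, near the quinone site, was at 82.6, 91.3 and 107 CPM (0.37). Ndufa11, also of the membrane arm and on chromosome 17 at 56717767 to 56722141, went the other way, at 302, 256 and 229 CPM in control, 3 h and 6 h. Its log2 ratios were -0.24 and -0.40 (-0.42 to -0.37 at 6 h), and it was lower under all 3 scalings at 6 h, though higher per barcode at 3 h (0.032). Ndufa3 and Ndufa1, short membrane arm subunits, had log2 ratios of -0.25 and -0.15 at 6 h. Ndufab1, the mitochondrial acyl carrier protein, was at 473, 490 and 536 CPM.

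Several of these genes overlap a neighbour in position on the opposite strand, Ndufa11 with Vmac, Ndufs3 with Kbtbd4 and Ndufb11 with Rbm10. In all, 30 of the 94 members overlap another annotated gene, and how the counting used strand is not stated in the sources used here, so their values are uncertain in that respect. The same holds for members with near-identical copies, such as Ndufb1-ps, whose symbol marks it as a pseudogene.

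**Figure D2:**
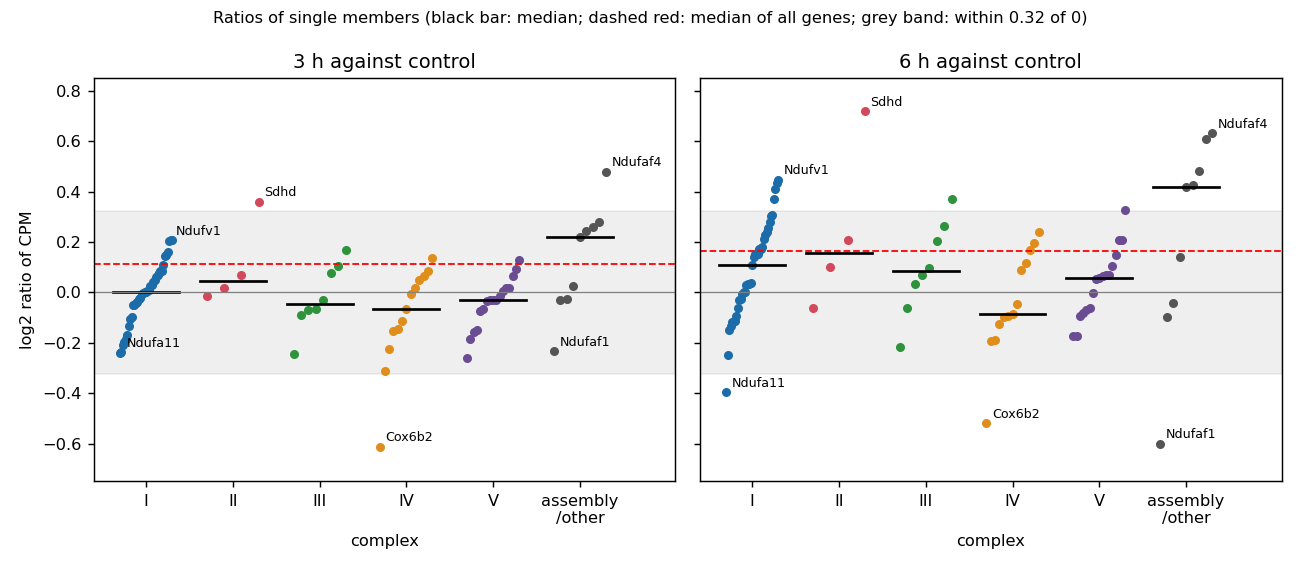
Log2 ratio of CPM of each of the 88 members at 3 h (left) and 6 h (right) against control, by complex, with the median of each complex (black bar), the median of all genes (dashed red) and the range within 0.32 of 0 (grey band). At 6 h 73 of the 88 points lie in the band, and Sdhd, Ndufaf4, Ndufaf1 and Cox6b2 are among those farthest from it.

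Complex II, the succinate dehydrogenase, had the largest summed ratio of the complexes, at 419, 453 and 505 CPM in control, 3 h and 6 h (log2 ratio 0.11 and 0.27 by CPM, -0.060 and -0.016 with TMM). Sdhd, a membrane anchor on chromosome 9 of GRCm38 at 50596357 to 50603812, accounted for most of that. It was at 98.4, 126 and 162 CPM in control, 3 h and 6 h, from 10971, 13505 and 22745 UMIs. The 6 h library was highest and the control lowest. Against the control this was 0.36 on the log2 scale after 3 h (0.32 to 0.40) and 0.72 after 6 h (0.69 to 0.75), the latter 0.43 with TMM.

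The other anchor, Sdhc, was at 98.6, 97.6 and 94.6 CPM. The flavoprotein Sdha, which oxidises succinate, was at 94.4, 95.7 and 101 CPM, and the iron-sulfur subunit Sdhb at 127, 133 and 147 CPM. Among all genes above the floor the 6 h ratio of Sdhd, the highest of the members, lay at percentile 83.6.

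Complex III, the cytochrome bc1 complex, summed to 3357, 3213 and 3431 CPM (log2 ratio -0.063 and 0.032 by CPM, -0.24 and -0.25 with TMM, 0.21 and 0.14 per barcode). Its parts differed. The core proteins and the Rieske protein were each higher by CPM in both treated libraries, though with TMM only Uqcrc1 at 6 h was (0.085). Uqcrc1 was at 196, 220 and 253 CPM (0.17 and 0.37), Uqcrc2 at 133, 143 and 159 CPM (0.11 and 0.26), and Uqcrfs1, the Rieske iron-sulfur protein, at 178, 187 and 205 CPM (0.076 and 0.20).

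The 5 small accessory subunits were each lower by CPM at 3 h, a side on which 35.9% of all genes lay, with a summed log2 ratio of -0.099, against 0.12 for the sum of the other 3 (per barcode 0.17 and 0.39). At 6 h the sums were -0.019 and 0.29, which with TMM were -0.31 and -2.9e-05. Uqcr11 was at 561, 473 and 483 CPM, lower by CPM in the treated libraries, though at 3 h not under all 3 scalings. Uqcrq was at 751, 718 and 719 CPM, and Uqcrh, the hinge protein, at 477, 454 and 488 CPM.

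Complex IV, the cytochrome c oxidase, summed to 10181, 9805 and 10028 CPM, with log2 ratios of -0.054 and -0.022 by CPM. Only for this complex was the CPM sum below the control at both times, and per barcode it was above at both (0.22 and 0.087). Cox4i1, a widely expressed subunit, was at 1588, 1684 and 1722 CPM, and Cox5b at 608, 669 and 684 CPM, both highest at 6 h. Cox7c, the member with the most UMIs in the control (Cox4i1 in both treated libraries), was at 1894, 1619 and 1655 CPM in control, 3 h and 6 h (-0.23 and -0.19). Cox8a was at 1094, 1045 and 1002 CPM, and Cox5a at 1015, 1012 and 982 CPM. Cox6a1 was at 212, 221 and 250 CPM and Cox7b at 647, 671 and 741 CPM, which with Cox5b made the 3 highest CPM ratios of this complex at 6 h (0.24 and 0.20 for the first pair, -0.047 and -0.091 with TMM). Cox6b1 was at 568, 574 and 604 CPM, Cox7a2 at 682, 617 and 643 CPM and Ndufa4 at 890, 822 and 833 CPM.

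The tissue isoforms of complex IV were mostly below the floor. Of 7 such genes only Cox6b2, a testis isoform, and Cox7a1, a heart and muscle isoform, passed it, the latter at 14.0, 11.3 and 12.3 CPM. Cox8b had 0, 0 and 1 UMI. Cox4i2, Cox6a2 and Cox8c were each under 2.1 CPM in every library, and Ndufa4l2 under 1.5 CPM.

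Cox6b2, on chromosome 7 at 4751792 to 4753094, was at 51.6, 33.8 and 36.0 CPM in control, 3 h and 6 h, from 5751, 3607 and 5048 UMIs. The control was the highest, and the treated libraries lay close together. Its log2 ratios were -0.61 (-0.67 to -0.55) and -0.52 (-0.58 to -0.47), below 0 under all 3 scalings. As a share of Cox6b1 and Cox6b2 together, which needs no scaling, Cox6b2 made up 8.33% of the control UMIs (95% Clopper-Pearson interval 8.12 to 8.54), 5.55% after 3 h (5.38 to 5.73) and 5.62% after 6 h (5.47 to 5.77). Free RNA, measured in barcodes with 10 to 100 UMIs, held Cox6b2 at 78.1, 40.5 and 38.5 CPM, and its part in the difference was not tested.

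Cox7b2, a testis isoform of subunit 7B named here after its values were seen, was below the floor at 0.960, 1.98 and 4.04 CPM (107, 212 and 567 UMIs). Its share of Cox7b and Cox7b2 together was 0.148% (0.121 to 0.179), 0.295% and 0.542% (0.499 to 0.589).

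Complex V, the ATP synthase, summed to 10246, 10018 and 10647 CPM (log2 ratio -0.032 and 0.055 by CPM, -0.21 and -0.23 with TMM, 0.24 and 0.16 per barcode). Its catalytic subunit Atp5b was at 1106, 1179 and 1277 CPM (0.093 and 0.21), and Atp5a1, the F1 alpha subunit, at 623, 652 and 720 CPM. Atp5o, the peripheral stalk subunit that ties F1 to the membrane part, was at 431, 471 and 541 CPM (0.13 and 0.33). By CPM it was the only member of this complex past 0.32 at 6 h, where 37.9% of all genes were higher and 15.9% lower. With TMM Atp5o was not past 0.32, while Atp5k, Atp5e, Atp5j2, Atp5md, Atp5j and Atp5mpl were lower past it (33.6% of all genes). Atp5e, the short F1 epsilon subunit, was lower by CPM at 728, 608 and 646 CPM (-0.26 and -0.17), though at 3 h not under all 3 scalings. The membrane subunits Atp5k, at 389, 342 and 345 CPM, and Atp5j2, at 824, 738 and 773 CPM, were the other 2 of the 3 lowest of the complex at 6 h (-0.17 and -0.093).

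The 3 genes of the c ring encode the same mature c subunit behind different import signals. Atp5g1 made up 46.6%, 46.1% and 47.3% of their UMIs in control, 3 h and 6 h, Atp5g2 37.2%, 38.2% and 36.8%, and Atp5g3 16.2%, 15.7% and 15.9%. The order of the 3 genes was the same in every library. The 5 small membrane subunits were each lower at 3 h by CPM (summed log2 ratio -0.11), and 4 of 5 at 6 h (-0.050), a side on which 35.9% of all genes lay at each time, while per barcode their sum was above the control (0.16 and 0.058).

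The complex I assembly factors, which help build the enzyme and are not part of it, summed to 326, 356 and 381 CPM (log2 ratio 0.12 and 0.22 by CPM, -0.050 and -0.064 with TMM). Single factors lay on both sides of the control. Ndufaf4, on chromosome 4 at 24898083 to 24905001, was at 46.1, 64.3 and 71.4 CPM in control, 3 h and 6 h, with log2 ratios of 0.48 (0.43 to 0.53) and 0.63 (0.58 to 0.68), above 0 under all 3 scalings. Ndufaf3 was at 33.4, 38.9 and 46.6 CPM and Ndufaf6 at 33.1, 39.2 and 44.5 CPM. Ndufaf5, named after its values were seen because its mean was under 20 CPM, was at 15.3, 18.6 and 23.4 CPM.

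Ndufaf1, on chromosome 2 at 119655446 to 119662827 and also named after its values were seen, went the other way, at 21.8, 18.5 and 14.4 CPM in control, 3 h and 6 h, from 2428, 1981 and 2015 UMIs. Its log2 ratios were -0.23 and -0.60 (-0.69 to -0.52 at 6 h), below 0 at 6 h under all 3 scalings but at 0.037 per barcode at 3 h. The rest, Ndufaf2, Ndufaf7 and Ndufaf8, had log2 ratios of -0.096, -0.041 and 0.14 at 6 h. Cox7a2l, which joins complexes III and IV, was at 200, 240 and 268 CPM (0.26 and 0.42).

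Assembly factors outside the symbol pattern, from a list of 38, were higher more widely. Of the 34 above the floor, 17 at 3 h and 25 at 6 h were higher by at least 0.32 by CPM, and 0 were lower. Among all genes 29.5% and 37.9% were higher, and 8.33% and 15.9% lower. With TMM 11 and 15 were higher, against 18% and 21.1% of all genes. At each time 2 were lower with TMM, Cox17 and Pet100, against 19.4% and 33.6% of all genes. The 34 had medians of 0.31 and 0.54 by CPM, against 0.11 and 0.17 for all genes. The sum of all 38 listed genes gave 0.21 at 3 h and 0.38 at 6 h by CPM, and 0.032 and 0.098 with TMM. Tmem126b, a complex I assembly factor, was at 13, 38.5 and 53.9 CPM, and Foxred1, of the same pathway, at 16.6, 29.4 and 40.5 CPM. Cox17, a copper chaperone of complex IV, was lower by CPM at 307, 255 and 261 CPM, though not per barcode at 3 h.

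A list of 13 regulators was counted the same way. In it Tfam, Tfb1m, Tfb2m and Polrmt act in mitochondria and not on the members. Of 10 of 13 above the floor, 1 was higher (Tfb1m) and 1 lower (Tfb2m) at 3 h by CPM, against 29.5% and 8.33% of all genes, and 2 were higher (Tfb1m and Gabpa) and 3 lower (Tfb2m, Nrf1 and Pprc1) at 6 h, against 37.9% and 15.9%. With TMM, 0 were higher and 3 lower at 3 h (18% and 19.4% of all genes), and 1 was higher and 6 lower at 6 h (21.1% and 33.6%). Tfb2m, a mitochondrial transcription factor, was at 18.4, 10.5 and 8.84 CPM and its relative Tfb1m at 12.1, 15.3 and 21.8 CPM. Nrf1 was at 38, 33.3 and 27.8 CPM. Of the 14 tricarboxylic acid cycle genes, which feed the chain with NADH and succinate, 0 passed 0.32 at 3 h and 3 were higher at 6 h by CPM (Mdh2, Ogdh and Dlst), where 29.5% and 37.9% of all genes were higher, and with TMM 3 were lower at 6 h (Cs, Idh3a and Suclg2; 33.6% of all genes) and 0 higher. Mdh2 was at 305, 330 and 396 CPM. Of 6 of 8 carriers and dehydrogenases above the floor, 1 was higher at 3 h (Dhodh) and 2 at 6 h (Dhodh and Etfb) by CPM, against 29.5% and 37.9% of all genes. With TMM 0 were higher at 3 h and 1 at 6 h, against 18% and 21.1% of all genes. At 6 h 1 was lower with TMM (Gpd2), against 33.6% of all genes. Dhodh, which feeds electrons from pyrimidine synthesis, was at 53.0, 71.2 and 83.5 CPM. Cycs, the electron carrier cytochrome c, was at 371, 373 and 395 CPM.

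The mitochondrially encoded partners of the members were lower by CPM. All 13 protein genes of mitochondrial DNA had less CPM in both treated libraries, as with TMM, while per barcode 11 of 13 were below the control at 3 h (all but mt-Co2 and mt-Co3) and 13 of 13 at 6 h. Together they were at 45697, 35150 and 29407 CPM in control, 3 h and 6 h. The ratio of UMIs from nuclear members of complexes I, III, IV and V to UMIs of these 13 genes, which no scaling touches, was 0.715, 0.907 and 1.14, or 1.27-fold and 1.60-fold the control. The ratio was lowest in the control and highest at 6 h.

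By complex, the ratio was 0.882, 1.43 and 2.02 for complex I, 0.788, 0.973 and 1.29 for complex III, 0.479, 0.547 and 0.651 for complex IV, and 1.01, 1.30 and 1.60 for complex V. At 6 h that was 2.29-fold the control for complex I and 1.36-fold for complex IV. As a sum, the mitochondrial genes of complex I were also the lowest against control at 6 h (log2 ratio -1.11), against -0.46 for those of complex IV. Single genes of complex I ran from -1.78 (mt-Nd6) to -0.86 (mt-Nd4), and mt-Atp8 of complex V was at -1.75. The mitochondrial share is part of the rule that selects barcodes, and without its limits the ratio was 0.773, 0.908 and 1.14.

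**Figure D3:**
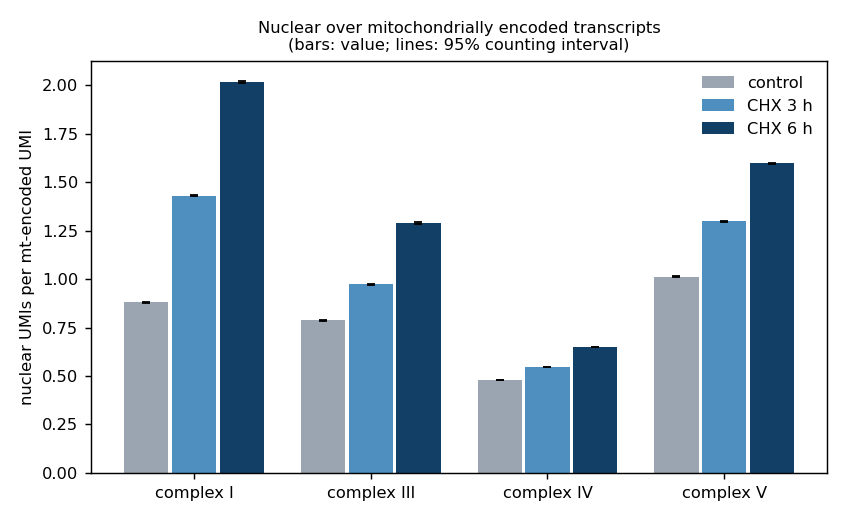
UMIs of nuclear members per UMI of mitochondrially encoded protein genes, for complexes I, III, IV and V in each library, with 95% counting intervals that are narrower than the line widths in most bars. In each complex the control is lowest and 6 h highest, and complex I shows the widest range, from 0.882 to 2.02.

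Cytosolic ribosomal protein genes, 87 of 90 above the floor, summed to log2 ratios of -0.13 and -0.16 by CPM (0.14 and -0.049 per barcode). Mitochondrial ribosomal protein genes, 78 of 78 above the floor, summed to 0.019 and 0.11 by CPM (-0.16 and -0.18 with TMM).

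Members with shorter coding sequences had lower ratios. Over 87 of the 88 members with a coding length in GENCODE M21 (median 432 bases, against 1302 bases for all genes), Spearman's rho between coding length and the log2 ratios was 0.59 and 0.53. Over 7494 genes it was -0.078 and -0.18. Members under 500 bases, 51 genes, had median log2 ratios of -0.051 and 0.034, and the 36 of 500 bases or more had 0.048 and 0.15. This split was chosen after the data were seen. These are correlations across genes of the same libraries, which share those libraries and, within a complex, their family, so they are given as descriptions.

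**Figure D4:**
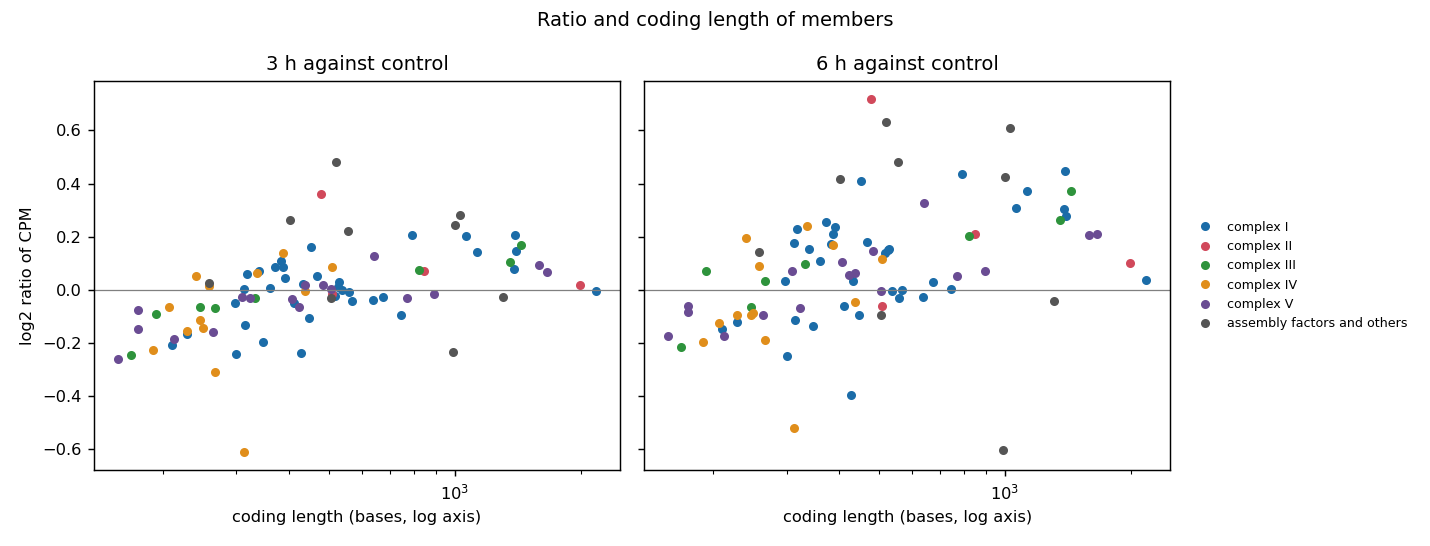
Log2 ratio of CPM at 3 h (left) and 6 h (right) against control plotted over coding length (log axis) for the 87 members with a coding length, coloured by complex. Points of short genes lie lower on average, with rho of 0.59 at 3 h and 0.53 at 6 h.

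Genes with the NRF1 letters in their promoter window, 19 of the 73 members with both a window and a level above the floor, had medians of 0.043 and 0.21 for the log2 ratios. The other members with a window had medians of -0.027 and 0.030. Among the 19 the 6 h ratios ran from -0.40 (Ndufa11) to 0.72 (Sdhd), so members with the letters lie at both ends. The 19 with the ETS letters had medians of -0.029 and 0.032, against 0.0061 and 0.10 without. Their 6 h ratios ran from -0.60 (Ndufaf1) to 0.72 (Sdhd), so they too lie at both ends. The 8 with the YY1 letters had -0.0086 and 0.085, against 0.0023 and 0.071, and the 6 with TATAAA -0.039 and -0.017, against 0.0076 and 0.10. Sdhd holds both the ETS letters and, outside the stretch shown above, the NRF1 letters. Ndufaf4 and Ndufaf5 hold NRF1 letters and Ndufaf1 the ETS letters. The windows were matched to letters only, and 4 motifs were examined.

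Within a library, barcodes differed in their share of member UMIs by more than counting error, though less than in the mitochondrially encoded share. The median share was 3.35%, 3.30% and 3.48%, and thinning each barcode to 15000 UMIs gave 3.35%, 3.30% and 3.48%. The 95th percentile was 1.39, 1.35 and 1.30 times the 5th, and the coefficient of variation was 0.106, 0.0955 and 0.0859, against 0.0261, 0.0249 and 0.0252 from counting alone. Mitochondrially encoded genes varied more, with coefficients of 0.267, 0.278 and 0.294. As shares of nuclear UMIs, members had coefficients of 0.103, 0.0940 and 0.0855. Those of cytosolic ribosomal protein genes were similar, at 0.0923, 0.105 and 0.0941. Mitochondrial ribosomal protein genes had 0.107, 0.0976 and 0.0988, so a spread of this size was not particular to members.

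**Figure D5:**
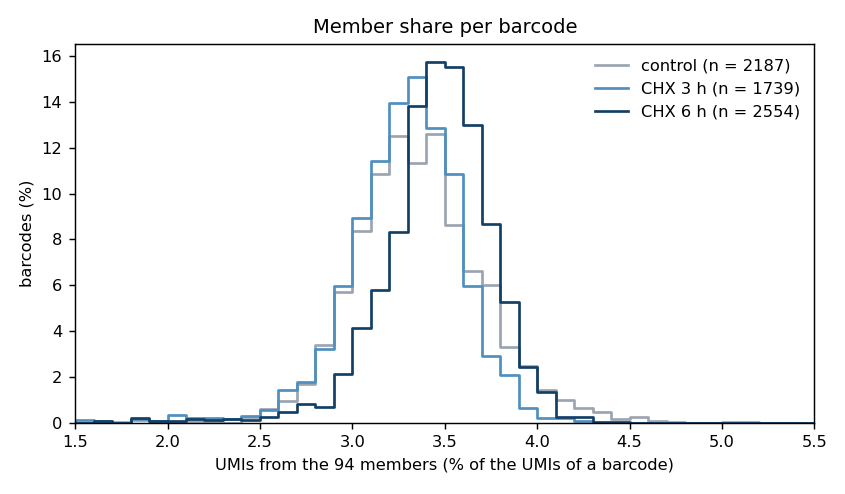
Percent of barcodes (y axis) at each share of UMIs from the 94 members (x axis, in steps), for 2187 control, 1739 3 h and 2554 6 h barcodes. The 3 distributions overlap widely, with medians of 3.35%, 3.30% and 3.48%.

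Over barcodes the members' share of nuclear UMIs went with the share of cytosolic ribosomal protein genes (Spearman's rho 0.57, 0.63 and 0.52). It also went with that of mitochondrial ribosomal protein genes (0.57, 0.56 and 0.47). After thinning the values were 0.54, 0.58 and 0.46 for the cytosolic and 0.46, 0.38 and 0.34 for the mitochondrial ribosomal genes. The members' share went hardly with the mitochondrially encoded share (-0.13, -0.042 and 0.063). Complexes I and V went together at 0.67, 0.62 and 0.57, and at 0.47, 0.42 and 0.37 after thinning. Barcodes share the library and its depth, so these values describe the libraries.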

How the data were processed

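The deposited values were raw UMI counts per gene and barcode, 1 matrix for each of 3 libraries, made by the authors with Cell Ranger 4.0.0 and mm10, both per the submitters' processing notes. Annotation release and use of strand are not given in the sources used here. Library totals were 127601369 (control), 115188502 (3 h) and 150987519 UMIs (6 h), and 0 kept barcodes exceeded the upper mitochondrial limit. No doublet caller was run, so doublets may remain.

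Counts were summed over kept barcodes and scaled to CPM, 1 tag per captured molecule and not divided by length. Log2 ratios used a prior of 0.5 counts. Intervals (95%) are exact Poisson for levels, exact conditional binomial for ratios and Clopper-Pearson for shares, and cover counting error only. Lists used a mean of at least 10 CPM, and named genes at least 20 CPM: the 3 highest and 3 lowest ratios at 6 h of each complex and of the non-subunits, plus fixed members. Of the genes this rule names, 1 is not reported here. Other genes named were chosen after their values were seen. Gene positions and lengths came from GENCODE M21, which held 32235 of the identifiers. Simulated counts over 7213 genes, 200 of them changed, gave 200 of 200 back in each comparison with 0 unchanged genes called. In them 95.09%, 95.36% and 94.57% of the counting intervals held the simulated ratio (3 h, 6 h, and 6 h against 3 h). Those intervals cover counting error only, so the simulation checked the calculation and not the calls made on the real libraries. Variation between libraries was not tested, since no group had a replicate. Alternatives were TMM factors (edgeR 4.0.16, R 4.3.3), UMIs per barcode, CPM of nuclear genes, other floors, a minimum of 25000 UMIs, no mitochondrial limits, and subtraction of 10% free RNA. Python 3.11.15, numpy 2.4.6, scipy 1.17.1 and pandas 2.3.3 were used. The members and lists were chosen with earlier results of these data known.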

Additional observations from a re-analysis of the deposited data

Results flagged for a closer look

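Among the sums of all members, each complex, each role class and the other gene lists, and the single members that the naming rule gives, 10 values had a ratio to control below 0 at 3 h and above 0 at 6 h by CPM, with counting intervals that exclude 0 at both times. Both ratios share the control library, and no test of 6 h against 3 h was possible with 1 library each. The 10 are not separate, since several of the sums hold the same genes. The median of all genes was itself 0.044 at 6 h against 3 h, and the share of all genes with this pattern was not computed. With TMM factors each of the 10 was below 0 at both times, and as UMIs per barcode each was above 0 at both. The sum of all members differed by 0.074 on the log2 scale between 6 h and 3 h (-0.029 and 0.046 against control), and that of the subunits alone by 0.073 (-0.032 and 0.041). The sum of complex III differed by 0.095 (-0.063 and 0.032) and that of complex V by 0.088 (-0.032 and 0.055). By role, the complex I accessory subunits differed by 0.083 (-0.0086 and 0.074), the F1 subunits of complex V by 0.099 (-0.0094 and 0.090) and its c ring genes by 0.10 (-0.020 and 0.083). Of single members, the c subunit gene Atp5g1 differed by 0.14 (-0.034 and 0.11), Atp5g3 by 0.12 (-0.066 and 0.057) and the hinge protein gene Uqcrh by 0.10 (-0.069 and 0.032).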

How the results depend on the processing

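Depth limits only the lowest members, and the scaling limits every direction near 0. In the order 3 h, 6 h and 6 h against 3 h, the log2 ratio of the summed level was -0.20, -0.24 and -0.037 with TMM factors, 0.24, 0.15 and -0.087 as UMIs per barcode, -0.045, 0.021 and 0.066 as CPM of nuclear genes, and -0.018, 0.043 and 0.061 after subtraction of free RNA. Without mitochondrial limits it was -0.065 at 3 h and 0.0087 at 6 h. The members' median against that of all genes was -0.068 at 3 h and -0.033 at 6 h with a floor of 50 CPM, -0.15 at 6 h and 0.020 at 6 h against 3 h with a floor of 1 CPM, and -0.16 and -0.14 at 3 h and 6 h without mitochondrial limits. The floors do not enter the summed values.

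Members lower by at least 0.32 (log2) at 3 h numbered 16 with TMM, 2 with nuclear CPM, 0 with a floor of 50 CPM, 3 without mitochondrial limits and 2 after subtraction of free RNA. At 6 h they numbered 29 with TMM and 1 with a floor of 50 CPM, and at 6 h against 3 h 0 with that floor. Members higher by at least 0.32 numbered 0 with TMM and 28 per barcode at 3 h, and 3 and 20 at 6 h. At 6 h against 3 h they numbered 0 with TMM, 0 per barcode, 1 with nuclear CPM and 1 with a floor of 50 CPM. Of all genes, 19.4% at 3 h and 33.6% at 6 h were lower with TMM. Higher were 18% and 21.1% with TMM, and 57.7% and 46.1% per barcode. For the other settings, and for 6 h against 3 h under any of them, the share of all genes is not given. Those counts are therefore no result about members as against other genes.

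The nuclear to mitochondrially encoded ratio in control, 3 h and 6 h was 0.719, 0.916 and 1.15 with a minimum of 25000 UMIs and 0.700, 0.902 and 1.11 after subtraction of free RNA, and 0.773 in the control without mitochondrial limits. Of 183 values per comparison, complex or gene, the sign changed for 75 with TMM, 79 per barcode, 3 with nuclear CPM, 2 with a minimum of 25000 UMIs, 6 after subtraction of free RNA and 7 without mitochondrial limits. No paired analysis was possible because each group has 1 library and no test was made, and for the same reason no library could be left out.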
